A study of Homo sapiens with 6 samples.

Results

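The MAGE-A genes of HT-29 cells, a human colon adenocarcinoma cell line, were examined with and without 5-Aza treatment. The members were found by gene symbol. All probe sets that the array annotation pairs with MAGEA1, MAGEA2, MAGEA3, MAGEA4, MAGEA5, MAGEA6, MAGEA8, MAGEA9, MAGEA10 or MAGEA12 were taken, which gave 12 of the 54675 probe sets of the array for these 10 of 21357 annotated gene symbols. Of the 12, 6 are annotated to a single gene and 6 to several. Treated cells were kept with 10 µM 5-aza-2′-deoxycytidine (5-Aza) for 72 hours in medium free of serum. Control cells had the vehicle alone, water and acetate, and each group had 3 HGU133 Plus 2.0 arrays. The line carries the genome of a single tumor, and it is not stated if separate cultures were used for the arrays. The errors therefore cover only the spread between the arrays, which may be technical. The genes were chosen by their difference in signal between treated and control cells on these same arrays, so those differences between treated and control cells are given as a description, without a test of the members.

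MAGE-A genes belong to the cancer-testis antigens. They are normally expressed in germ cells of the testis, are silent in most other adult tissues, where their promoters are methylated, and become active in many tumors, in which peptides of MAGE-A proteins can be recognized by cytotoxic T cells. The proteins share a MAGE homology domain that binds E3 ubiquitin ligases. 5-Aza is a cytidine analog that inhibits DNA methyltransferases, so that methylation is lost as treated cells divide. In the MAGEA1 promoter, methylation of CG dinucleotides within binding sites of ETS factors is known to hinder their binding.

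The promoter windows of the MAGE-A genes are shown because the treatment acts on the methylation of CG dinucleotides. RefSeq windows of 300 bases (GRCh38.p14, 250 before and 50 after a gene start) were at hand for 7 of the 10 genes, with 13 windows in all, 5 of them for separate starts of MAGEA4. The stretch GGATGTGA and the base before it are in capitals. The first 3 windows belong to genes whose signal appeared after treatment and the last 2 to genes with a strong signal in control cells.
MAGEA4 (chrX:151912224-151912523, plus strand): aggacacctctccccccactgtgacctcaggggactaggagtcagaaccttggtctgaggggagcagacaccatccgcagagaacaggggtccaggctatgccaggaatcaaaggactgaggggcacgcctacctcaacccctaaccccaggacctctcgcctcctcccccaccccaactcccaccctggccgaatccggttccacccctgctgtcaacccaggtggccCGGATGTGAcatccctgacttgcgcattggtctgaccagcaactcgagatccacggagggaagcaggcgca
MAGEA8 (chrX:149880933-149881232, plus strand): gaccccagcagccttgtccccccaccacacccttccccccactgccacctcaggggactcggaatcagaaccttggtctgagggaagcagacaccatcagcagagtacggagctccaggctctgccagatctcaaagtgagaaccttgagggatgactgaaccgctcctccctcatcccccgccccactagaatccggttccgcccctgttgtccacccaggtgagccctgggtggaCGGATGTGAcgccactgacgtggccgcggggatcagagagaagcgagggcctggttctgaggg
MAGEA9 (chrX:149781680-149781979, plus strand): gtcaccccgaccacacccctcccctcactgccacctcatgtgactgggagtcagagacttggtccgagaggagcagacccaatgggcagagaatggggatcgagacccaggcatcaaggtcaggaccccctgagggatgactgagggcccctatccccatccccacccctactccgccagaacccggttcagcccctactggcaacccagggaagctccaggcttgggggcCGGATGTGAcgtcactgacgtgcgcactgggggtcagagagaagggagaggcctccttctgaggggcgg
MAGEA6 (chrX:152769640-152769939, minus strand): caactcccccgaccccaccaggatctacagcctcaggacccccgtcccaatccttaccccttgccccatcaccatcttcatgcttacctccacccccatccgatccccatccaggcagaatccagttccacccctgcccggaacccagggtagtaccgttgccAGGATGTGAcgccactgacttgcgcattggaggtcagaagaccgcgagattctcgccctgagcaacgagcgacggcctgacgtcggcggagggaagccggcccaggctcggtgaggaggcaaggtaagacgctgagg
MAGEA12 (chrX:152733507-152733806, plus strand): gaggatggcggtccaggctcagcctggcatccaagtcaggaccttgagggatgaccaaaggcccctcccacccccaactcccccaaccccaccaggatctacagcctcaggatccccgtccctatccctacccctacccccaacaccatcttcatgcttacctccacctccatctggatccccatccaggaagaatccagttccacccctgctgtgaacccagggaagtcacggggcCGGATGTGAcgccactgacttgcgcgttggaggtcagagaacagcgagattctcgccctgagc
The window of MAGEA3 has the same 300 letters as that of MAGEA6, and that of MAGEA9B the same 300 as that of MAGEA9.

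All 13 windows held GGATGTGA, which 1.16% of the 35116 RefSeq windows of this length hold on either strand. In 11 of the 13 the stretch was CGGATGTGA, with a CG dinucleotide (0.222% of all windows). In the windows of MAGEA3 and MAGEA6 it was AGGATGTGA (0.325% of all windows). These stretches overlap, since GGATGTGA is part of the other 2. The stretch CCGGAA, 1 form of an ETS site, was present in 2 of the 13, those of MAGEA3 and MAGEA6, and in 17.2% of all windows. ETS sites take other forms too, which were not counted as such, so the other windows cannot be said to lack one. The genes are close relatives and several windows overlap, so the 13 are not independent, and the stretch was chosen after the windows had been seen. A match is a stretch of letters and not a measured binding site.

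The windows held between 9 and 19 CG dinucleotides (median 13), and all windows had a median of 14 with quartiles at 4 and 28. Among genes that appeared after treatment, the windows of MAGEA4 had 10 to 15, that of MAGEA8 had 12 and that of MAGEA9 had 10. Among genes with a signal in control cells, MAGEA3 and MAGEA6 had 19 each, the windows of MAGEA2 had 13 and 17, and those of MAGEA12 had 9 and 15. The ranges of the 2 kinds overlapped.

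**Figure D1:**
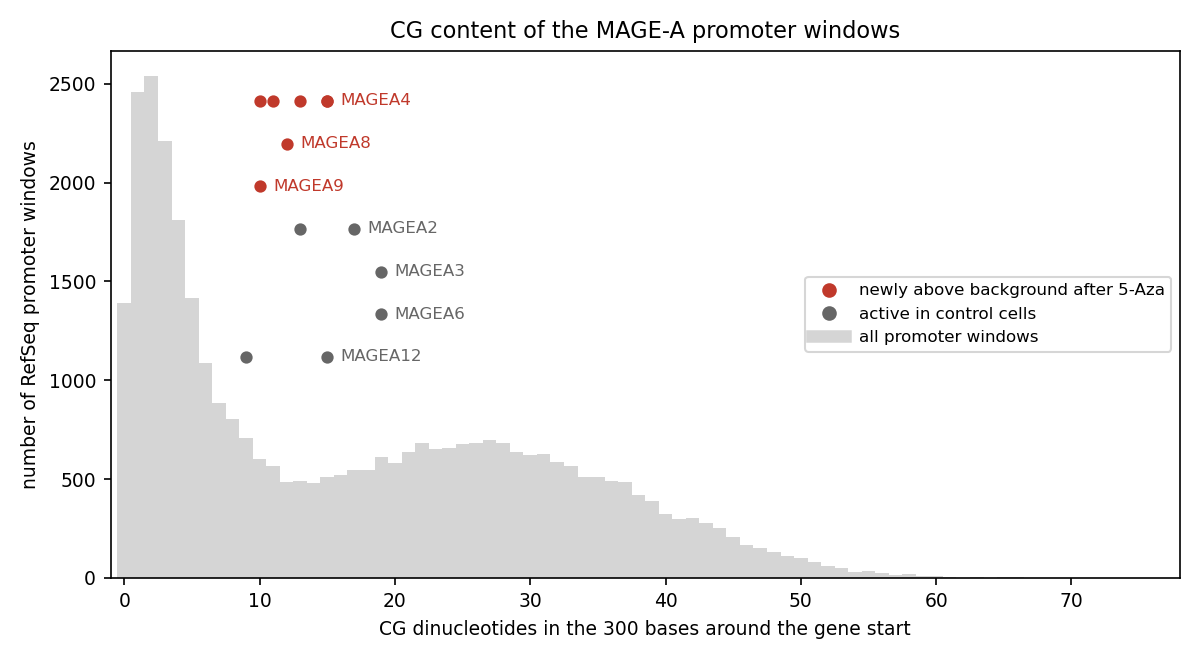
Number of RefSeq promoter windows (y axis) by the CG dinucleotides in their 300 bases (x axis). Points mark the windows of 7 MAGE-A genes, with 1 row for each gene at an arbitrary height, red for genes newly above background after 5-Aza and grey for genes active in control cells, and all of them lie between 9 and 19.

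On each array, the highest of the 3 probe sets for TrpnX, a bacterial transcript, was taken as the background level. It lay between 22.6 and 31.8 on the 5-Aza arrays and between 23.8 and 42 on the control arrays. A probe set was called active in control cells when its signal passed this level on all 3 control arrays. It was called newly above background when it was not active in this sense, passed the level on all 3 treated arrays, and had every treated array above every control array. By these rules 7 of the 12 MAGE-A probe sets were active in control cells (54.5% of all 54614 tested probe sets), 4 were newly above background (1.95% of all, and 4.28% of those not active in control cells), and 1, that of MAGEA10, was above background on no array. The median array signal was 83.1 to 85.8 on the 5-Aza arrays and 71.5 to 76.7 on the control arrays. Signals come from whole cultures, so more cells with a transcript and more RNA per cell cannot be told apart. Levels of different probe sets are not compared with each other, as probes differ in how strongly they hybridize.

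**Figure D2:**
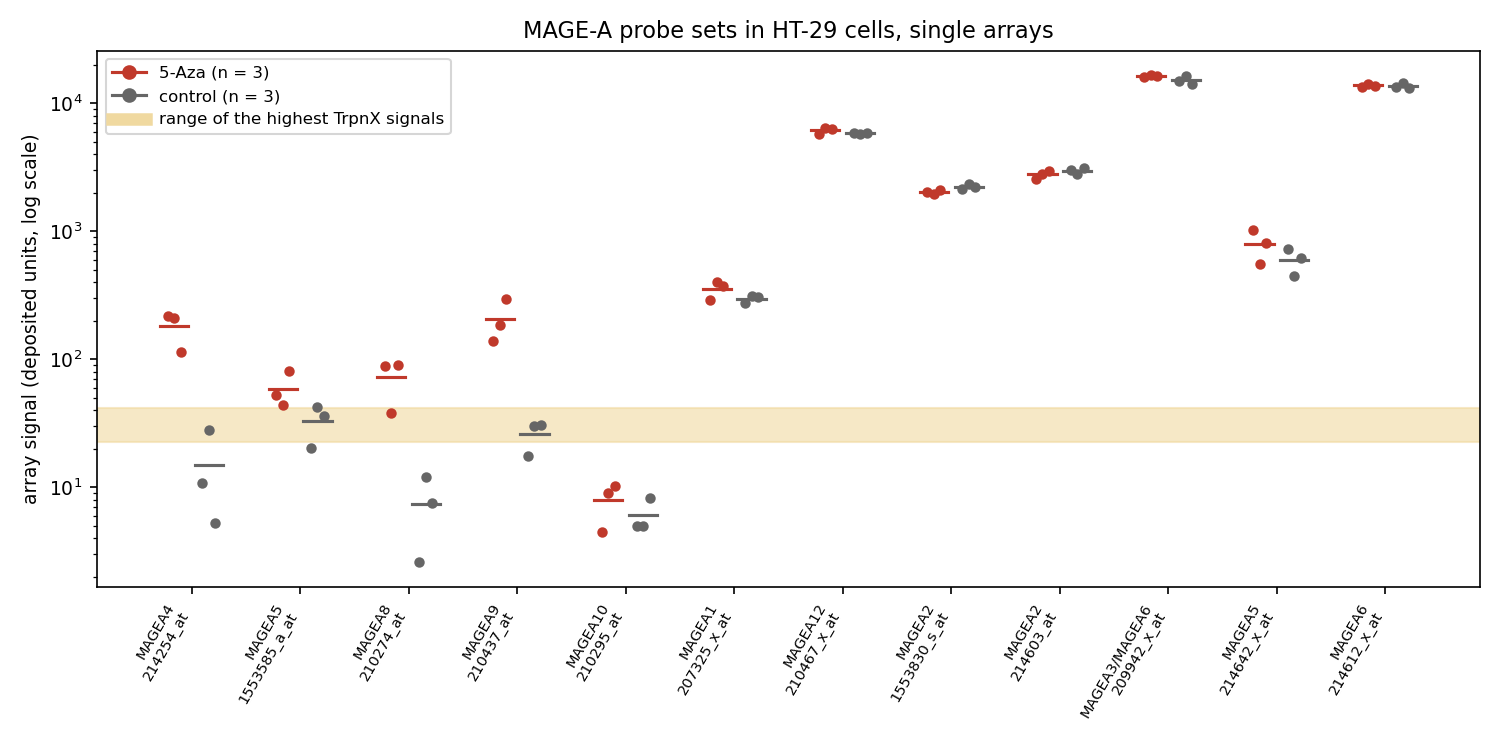
Array signals (y axis, log scale) of the 12 MAGE-A probe sets (x axis) in 5-Aza-treated (red) and control (grey) cells. Each point is 1 array (3 in each group), bars are group means and the shaded band runs from 22.6 to 42, the range of the TrpnX levels. The control points of MAGEA4, MAGEA8 and MAGEA9 lie in or under the band and the treated points of MAGEA4 and MAGEA9 above it.

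MAGEA4, MAGEA8 and MAGEA9 were the members whose signals appeared after treatment with the largest differences. MAGEA4 (214254_at), whose protein is a target of engineered T cells, had signals of 217.9, 212.1 and 115.2 on the 5-Aza arrays, against 10.9, 28.3 and 5.3 on the control arrays. All treated signals lay above the background level and all control signals below it. The mean was 182 ± 57.7 with 5-Aza and 14.8 ± 12 in control cells (SD, n = 3 each), with a log2 fold change of 3.76 (SE 0.63) after 1 was added to the signals. Since the control signals were not above background, a fold was also computed against the background level of each control array, which gave an at least 5.28-fold higher signal. The log2 fold change was 3.23 without control replicate 3 and 4.34 without control replicate 2.

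MAGEA8 (210274_at), which lies next to MAGEA9 among the MAGE-A genes of the X chromosome, had signals of 89.2, 38 and 89.9 in 5-Aza-treated cells, against 2.6, 12.1 and 7.5 in control cells. 5-Aza replicate 2 was the lowest treated array and was still above every control array and above its own background level of 22.6. The mean was 72.4 ± 29.8 with 5-Aza and 7.40 ± 4.75 in control cells (SD, n = 3 each), with a log2 fold change of 3.21 (SE 0.60). Against the background level of the control arrays the signal was at least 2.06-fold higher. Measured against 42, the highest TrpnX level of any array, MAGEA8 was no longer newly above background, because of the signal of 38.

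The probe set of MAGEA9 (210437_at) is shared with MAGEA9B, a copy of the gene, so the transcripts of both cannot be told apart. Its signals were 138.2, 186.8 and 298.8 in 5-Aza-treated cells, against 17.6, 30.3 and 30.7 in control cells. Here 5-Aza replicate 3 was the highest array, whereas it was the lowest treated array for MAGEA4. The mean was 208 ± 82.4 with 5-Aza and 26.2 ± 7.45 in control cells (SD, n = 3 each), with a log2 fold change of 2.91 (SE 0.38), an at least 5.97-fold higher signal against the background level.

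The fourth probe set newly above background, 1553585_a_at, is annotated to MAGEA5P, the current symbol of MAGEA5, which RefSeq lists as a transcribed pseudogene, and to a readthrough gene with MAGEA10. Its signals were 52.3, 43.8 and 80.7 in 5-Aza-treated cells, against 20.3, 42.7 and 36.1 in control cells. The lowest treated signal, 43.8, was close to the highest control signal, 42.7, and 1 of the control arrays was above background. The log2 fold change was 0.83 (SE 0.37). The groups overlapped after the arrays had been centred on their medians. The other probe set of the same genes, 214642_x_at, had 1019, 559.4 and 808.4 in 5-Aza-treated cells, against 730.5, 447.4 and 616.5 in control cells, with overlapping groups and a log2 fold change of 0.40 (SE 0.31). It counted as active in control cells, so the probe sets of MAGEA5 differed in their class. The suffix _x_at marks probe sets with probes that also match other transcripts, so this signal cannot be assigned to MAGEA5 alone.

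Measured signals of MAGEA3, MAGEA6, MAGEA2 and MAGEA12 were high without 5-Aza and differed little after it. MAGEA3 and MAGEA6 bind the ubiquitin ligase TRIM28 and direct it to the AMP-activated kinase subunit encoded by PRKAA1. The probe set of MAGEA6 (214612_x_at) had signals of 13479.7, 14221.9 and 13779.8 in 5-Aza-treated cells, against 13368.1, 14383.8 and 13128.2 in control cells. The groups overlapped, with a log2 fold change of 0.022 (SE 0.13). The probe set shared by MAGEA3 and MAGEA6 (209942_x_at) had 16138.5, 16649.3 and 16342.9 in 5-Aza-treated cells, against 14861.9, 16447.3 and 14152 in control cells, and a log2 fold change of 0.11 (SE 0.14). For this probe set control replicate 2 alone overlapped with the treated arrays.

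MAGEA12 (210467_x_at), which also yields peptides recognized by T cells, had 5774.5, 6427 and 6357.4 in 5-Aza-treated cells, against 5897, 5785 and 5843.1 in control cells. The log2 fold change was 0.081 (SE 0.14), and 5-Aza replicate 1 was the lowest of all 6 arrays. MAGEA2, whose protein binds p53 and recruits histone deacetylases, has 2 probe sets, both shared with its copy MAGEA2B. One of them, 1553830_s_at, had 2029.7, 1949.7 and 2101.7 in 5-Aza-treated cells, against 2162.8, 2339.9 and 2205.4 in control cells. Every treated array was below every control array, while the log2 fold change was -0.14 (SE 0.13). The other, 214603_at, had 2586.2, 2834.3 and 2963.7 in 5-Aza-treated cells, against 3023.5, 2828.4 and 3105.3 in control cells, and a log2 fold change of -0.097 (SE 0.14) with overlapping groups.

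MAGEA1 (207325_x_at), the first gene of the family to be found as a tumor antigen, had 289.7, 401.2 and 371.6 in 5-Aza-treated cells, against 276.4, 312.5 and 305.3 in control cells. 5-Aza replicate 1 lay among the control arrays, and the log2 fold change was 0.24 (SE 0.18), or 0.37 without this array. The probe sets of MAGEA1, MAGEA12 and MAGEA6 and those shared by MAGEA3 and MAGEA6 and by the MAGEA5 genes have the suffix _x_at, so 5 of the 7 active probe sets may also hold signal of related transcripts. Without them 2 active probe sets were left, those of MAGEA2. MAGEA10 (210295_at) had signals of 4.5, 9 and 10.2 in 5-Aza-treated cells, against 5, 5 and 8.2 in control cells, all under the background level.

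**Figure D3:**
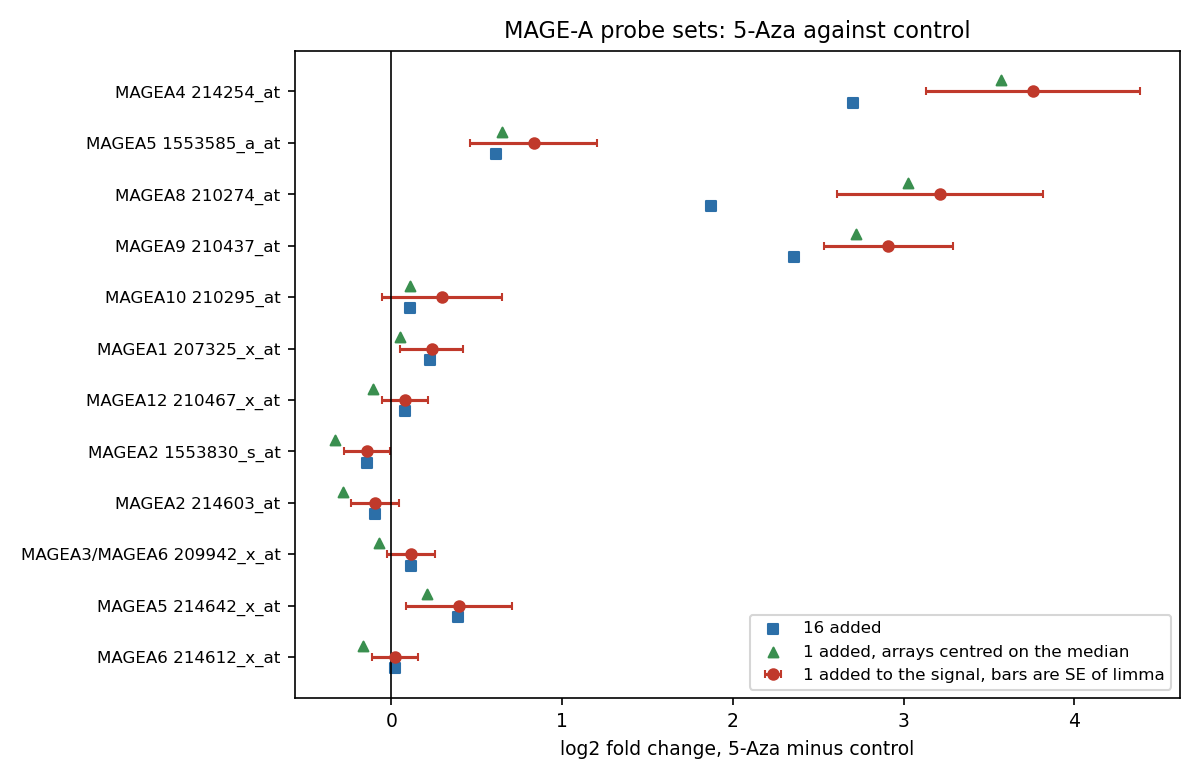
Log2 fold change (x axis, 5-Aza minus control) of each MAGE-A probe set (y axis), n = 3 arrays per group. Red points have 1 added to the signals and bars are the SE of the limma fit, blue squares have 16 added and green triangles have each array centred on its median. The points of MAGEA4, MAGEA8 and MAGEA9 lie between 1.87 and 3.76 and those of the 7 active probe sets between -0.33 and 0.40.

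Across the family, 10 of the 12 probe sets had a positive log2 fold change, with a median of 0.27, beside 0.062 for the whole array. All treated arrays exceeded all control arrays for 4 of the 12 (MAGEA4, MAGEA8, MAGEA9 and 1553585_a_at of MAGEA5), as for 9.29% of all probe sets, and below every control array for 1 of the 12, as for 5.22% of all. The count of 4 was 7 without 5-Aza replicate 1, when MAGEA1, MAGEA10 and MAGEA12 were added, and 6 without control replicate 2. Leaving out an array can only keep or raise this count, and it was 3 after median centring. Since the family was chosen in this comparison, nothing is read from these shares. At an adjusted p under 0.05, limma called 0 of the 54614 probe sets higher and 0 lower (0% in each direction, smallest adjusted p = 0.0903). Without adjustment, at p under 0.05 in limma, 2873 probe sets (5.26%) had higher and 1078 (1.97%) lower signals after treatment. This split was 1599 and 3050 after median centring and 1954 and 1674 after quantile normalization.

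The control signals of MAGEA4, MAGEA8 and MAGEA9 were under background on all 3 arrays, so the size of their log2 fold changes, and any rank by it, depends on the constant added. With 1 added, MAGEA4 stood at rank 9 of 54614, MAGEA8 at rank 33 and MAGEA9 at rank 73. With 16 in place of 1 added to the signals their log2 fold changes were 2.70, 1.87 and 2.36, and MAGEA9 then came at rank 15, with MAGEA4 at 8 and MAGEA8 at 34. No other MAGE-A probe set was among the 3000 highest (5.49% of all). With each array centred on its median, the log2 fold change over all probe sets had a median of -0.12, against 0.062 without centring. The log2 fold changes of MAGEA6, MAGEA12 and the probe set shared by MAGEA3 and MAGEA6 then turned to -0.16, -0.11 and -0.072, while those of MAGEA4, MAGEA8 and MAGEA9 were 3.57, 3.03 and 2.72. Centring lowered the values of all probe sets alike, so those near 0 changed sign with it. After quantile normalization these 3 probe sets had 0.028, 0.10 and 0.098.

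In the RefSeq order along the X chromosome, MAGEA3, MAGEA2B, MAGEA12, MAGEA2 and MAGEA6 lie in 1 run that holds no other genes than CSAG genes. Every probe set measured in this run was active in control cells. Those of MAGEA3, MAGEA6 and MAGEA12 have the suffix _x_at, and those of MAGEA2 and of the CSAG genes are shared by copies. Activity can therefore not be assigned to each gene of the run alone. The probe set shared by CSAG2 and CSAG3 had signals of 1408.3, 1839 and 1386.4 in 5-Aza-treated cells, against 1855.1, 1621.2 and 1833 in control cells, so it was active in control cells as well (log2 fold change -0.21, SE 0.18). MAGEA9, MAGEA8 and MAGEA4 lie outside this run, on the same side of it. Between MAGEA4 and the run lie, among other genes, MAGEA5P with its readthrough gene, and MAGEA10, which was above background on no array. Of the probe sets of MAGEA5P, 214642_x_at was active in control cells and 1553585_a_at was newly above background. Near MAGEA9 lies MAGEA11, a family member outside the 10 genes, with 2.8, 14.8 and 26.4 in 5-Aza-treated cells, against 8.2, 7.3 and 2 in control cells, all under background. MAGEA1 lies apart on the other side of the run.

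**Figure D4:**
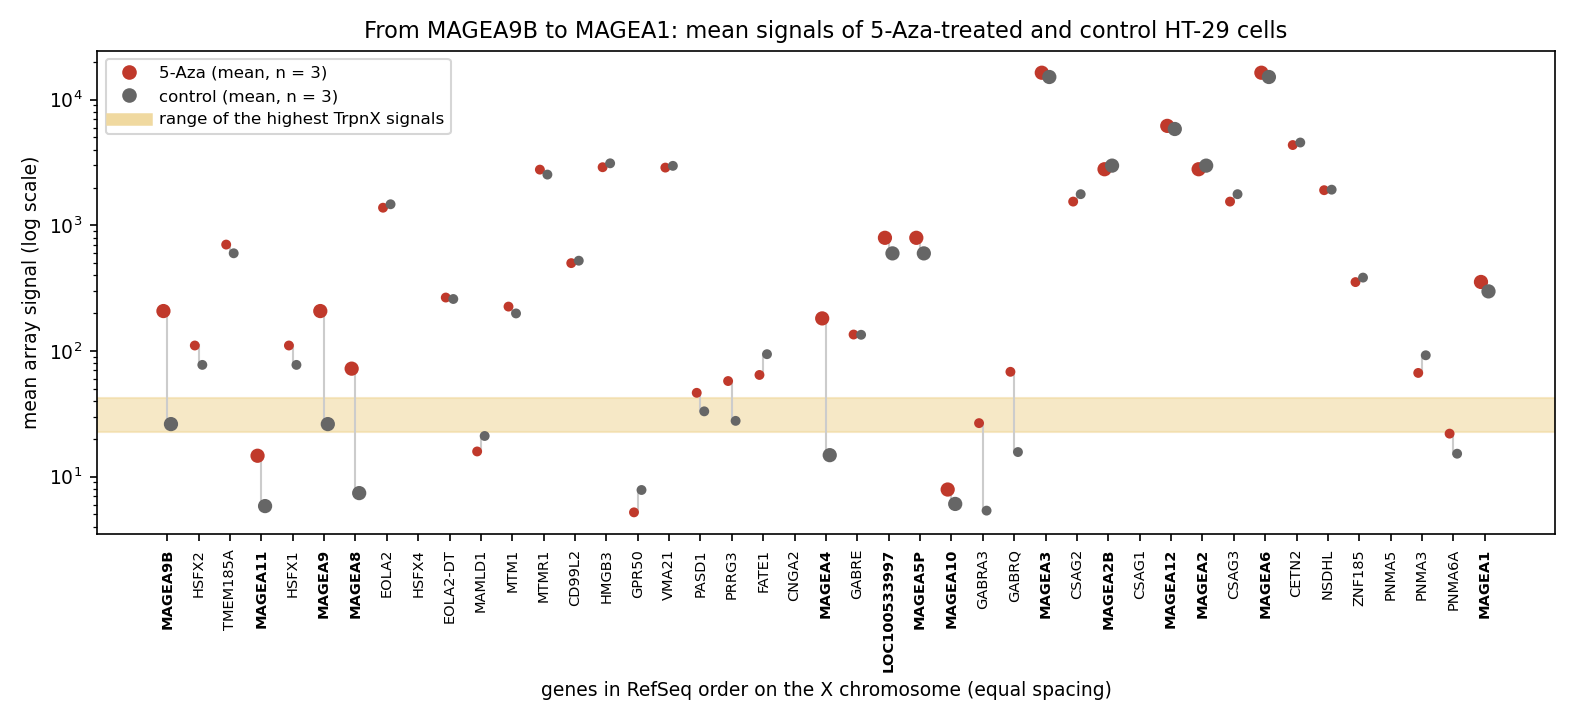
Mean array signals (y axis, log scale, n = 3 arrays per group) of the genes from MAGEA9B to MAGEA1 in their order on the X chromosome (x axis, equal spacing), in 5-Aza-treated (red) and control (grey) cells. MAGE-A genes are drawn larger and in bold, each gene is drawn with its probe set of highest mean signal, shared probe sets are drawn at each of their genes, and the shaded band is the range of TrpnX levels. Grey lines join the group means, and those of MAGEA9, MAGEA8 and MAGEA4 span from the band or below it to means between 72.4 and 208.

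Of a list of 27 genes in the stretch between the MAGE-A genes, 19 had a probe set with a single symbol, among them the family member MAGEA11. At an adjusted p under 0.05 in limma 0 of the 19 were called. Without adjustment 1 had a higher and 0 a lower signal at p under 0.05, with a median log2 fold change of -0.046. The whole array had 5.26% higher and 1.97% lower at this threshold, with a median of 0.062. The gene past the unadjusted threshold was GABRQ, a subunit of GABA receptors, which had 63.3, 50 and 91.6 in 5-Aza-treated cells, against 26, 8.4 and 12.7 in control cells. By the rules given above GABRQ was newly above background, like MAGEA4, MAGEA8 and MAGEA9. Its log2 fold change was 2.15 (SE 0.46, adjusted p = 0.448, limma), a value that depends on the constant added, since the control signals of 8.4 and 12.7 were under background. GABRQ lies directly before MAGEA3 in the gene order. The cancer-testis genes PASD1 and FATE1 in the same stretch had log2 fold changes of 0.62 (SE 0.45) and -0.65 (SE 0.41), with overlapping groups for PASD1. FATE1 was active in control cells, with 84.9, 76.6 and 31.9 in 5-Aza-treated cells, against 87.4, 109.7 and 85.9 in control cells. Every treated array was thus below every control array for FATE1, as for 5.22% of all probe sets (adjusted p = 0.796, limma).

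The type II MAGE genes, relatives that are expressed in many adult tissues, served as another comparison. Of 10 measured type II genes 4 were above background on all 5-Aza arrays and the same number on all control arrays, and 0 were called by limma at an adjusted or at an unadjusted p under 0.05. Their median log2 fold change was 0.11, and without 5-Aza replicate 3 or without control replicate 2 it was 0.35. MAGEH1 was above background on 1 of the 6 arrays and MAGEE2 on none, so their values lie mostly under background. They had the largest absolute log2 fold changes of the list, MAGEH1 (1.26, SE 0.66, adjusted p = 0.761) and MAGEE2 (0.98, SE 0.86, adjusted p = 0.849, limma for both), and their groups overlapped.

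Among 11 measured partners of MAGE-A proteins, limma called 0 at an adjusted p under 0.05. Without adjustment 2 had a higher and 0 a lower signal at p under 0.05 (median log2 fold change -0.020). Over all probe sets 5.26% were higher and 1.97% lower at this threshold, with a median of 0.062. PRKAA1 had 1924.7, 1891.2 and 1717.8 in 5-Aza-treated cells, against 1464.8, 1331.3 and 1334.2 in control cells. The log2 fold change was 0.42 (SE 0.14, adjusted p = 0.634, limma). TRIM31, a ubiquitin ligase of the same family as TRIM28, had 1634.3, 1609.3 and 1497.2 in 5-Aza-treated cells, against 1110, 1316.8 and 816.9 in control cells (log2 fold change 0.57, SE 0.22, adjusted p = 0.676, limma). In both genes every treated array was above every control array, as for 9.29% of all probe sets. Both were named for their p on these same arrays, so nothing further is read from this. TRIM28 itself had a log2 fold change of -0.020 (SE 0.18).

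Among 21 measured genes that act on MAGE-A promoters or on DNA and histone methylation, limma called 0 at an adjusted and 0 at an unadjusted p under 0.05, and the median log2 fold change was 0.035. CTCFL, a testis relative of CTCF, had the largest value (1.00, SE 1.13, adjusted p = 0.878, limma). Its signals of 54.1, 6.8 and 21.2 in 5-Aza-treated cells overlapped with those of 1.9, 31.7 and 11.5 in control cells, and 1 of the 6 arrays was above its background level. EHMT2, a histone H3 methyltransferase, had 1568.3, 1345.9 and 1463.2 in 5-Aza-treated cells, against 1706.9, 1954.4 and 2182 in control cells (log2 fold change -0.41, SE 0.17, adjusted p = 0.692, limma). DNMT1, the maintenance DNA methyltransferase, had a log2 fold change of 0.097 (SE 0.16).

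The 3 single-gene probe sets whose log2 signals followed MAGEA4 most closely over the 6 arrays, out of 41090, were those of RPS27L, a ribosomal protein relative (Pearson correlation 0.998), XYLT2, a xylosyltransferase (0.995), and DCAF10, an adapter of ubiquitin ligases (0.994). Their log2 fold changes were 0.34, 0.53 and 0.22. These 6 points share their 2 groups, so the correlations describe these arrays only.

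The labelled cell type was checked by its markers. Of 11 colon epithelium markers, 8 were above background on all 5-Aza arrays and 9 on all control arrays, among them EPCAM, CDH1, VIL1, KRT20 and LGALS4. CDX1 was above background on no array, and CDH17 on 1 treated and 2 control arrays. CDX2 had 91.6, 26 and 10.4 in 5-Aza-treated cells, against 62.1, 83.9 and 81.4 in control cells. It was above background on 2 treated and 3 control arrays, with overlapping groups (log2 fold change -1.32, SE 0.78, adjusted p = 0.785, limma). The median log2 fold change of the 11 markers was -0.023. CEACAM5, an adhesion molecule of the colon epithelium, had 732.4, 850.7 and 925.9 in 5-Aza-treated cells, against 400.8, 411.2 and 469.4 in control cells (log2 fold change 0.96, SE 0.17, adjusted p = 0.319, limma).

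Of 7 germ cell markers, 2 were above background on all 5-Aza arrays (SYCP3 and TNP1) and 1 on all control arrays (SYCP3). Their summed signal was 204.8 to 302.3 on the 5-Aza arrays and 161.1 to 237.7 on the control arrays, with a median log2 fold change of 0.45, beside 0.062 for the whole array. PRM1 was above background on 2 treated arrays and 1 control array, as was ACRV1, DAZL on 1 treated array and 0 control arrays, DDX4 on 0 treated arrays and 1 control array, and PRM2 on no array.

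Of 3 leukocyte markers, 2 were above background on all 5-Aza arrays and 1 on all control arrays (summed signal 28194 to 31517 with 5-Aza and 19716 to 29939 in control cells, nearly all of it from LYZ), with a median log2 fold change of 0.27. Of 5 markers of fibroblasts and endothelium, 2 were above background on all 5-Aza arrays and 2 on all control arrays (609.7 to 655.9 with 5-Aza and 432.6 to 580.8 in control cells), with a median of 0.42. VWF, a clotting factor carrier made by endothelium, had 24.5, 68.9 and 72.2 in 5-Aza-treated cells, against 11.2, 20.4 and 7.7 in control cells, where all 3 were under background (log2 fold change 1.95, SE 0.55, adjusted p = 0.579, limma). Of 3 melanocyte markers, 2 were above background on all 5-Aza arrays and 1 on all control arrays (173.6 to 295.8 with 5-Aza and 156.5 to 247.5 in control cells), with a median of 0.72. This median is the value of MLANA (SE 1.15), whose groups overlapped and which was above background on 2 treated arrays and 1 control array. PMEL, above background on every array, had 0.018 (SE 0.19), and TYR had 1.06 (SE 0.87) with overlapping groups. CEACAM5 and VWF were the only markers of these 5 lists at an unadjusted p under 0.05 in limma, and 0 markers passed at an adjusted p under 0.05. Both had higher signals after treatment, as 5.26% of all probe sets had at this unadjusted threshold. The part of other cell types in the MAGE-A signals was not tested.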

How the data were processed

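RNA of 5-Aza-treated and control HT-29 cells was measured on 6 HGU133 Plus 2.0 arrays, 3 per group, grouped by the sample labels. The deposited values are linear intensity values, 1 for each probe set and array, which the authors made with the affy package (version and summary method not given in the sources used here). The mean of each array without the lowest and highest 2% was 500, so the arrays had been scaled. No detection calls were used.

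After removal of 61 control probe sets, log2(signal + 1) of 54614 probe sets was compared with limma 3.58.1 in R 4.3.3, with the group as the only term and Benjamini-Hochberg adjustment. The methods of the study name SAM. limma was used in its place, since 3 arrays against 3 leave few permutations. The script was tested on simulated data. The annotation gives 1 symbol for 41097 probe sets, several for 1801 and none for 11777. Comparison lists took the probe set of highest mean signal for each gene, with _x_at probe sets only where a gene had no other. The members and lists were chosen with earlier results of these data known. Named in the text are all members, MAGEA11, genes of the 4 comparison lists at an unadjusted p under 0.05 (or the 2 with the largest change where none passed), and the 3 probe sets most like MAGEA4. CSAG2, CSAG3, PASD1, FATE1, TRIM28, DNMT1 and the markers were named after their values were seen. Alternatives were another added constant (16), quantile normalization, median centring, trend and robust variance, a filter on low signals, other background levels, no _x_at probe sets, averaging the probe sets of a gene, the replicate block and leaving out each array. The number of arrays limits the precision.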

Additional observations from a re-analysis of the deposited data

How the results depend on the processing

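The number of probe sets at an adjusted p under 0.05 in limma was 0, but 23 with trend and robust variance (22 higher and 1 lower) and 9 after probe sets under the median signal had been left out. The sources do not pair the arrays, and arrays with the same number deviated from their group means without correlation (-0.012 to 0.0097). With the replicate block 0 probe sets were called, and without adjustment 2694 had higher and 1053 lower signals at p under 0.05. Of the 12 MAGE-A probe sets, those with every treated above every control array were 4 to 7 when 1 array was left out. Leaving out an array can only keep or raise this count, and it was 3 after median centring. Active ones were 2 without _x_at probe sets. Those newly above background were 2 (MAGEA4 and MAGEA9) when the median of all probe sets was the background level. Median log2 fold changes of the gene lists changed as follows, and the cause was not tested. For genes between the MAGE-A genes it was -0.23 after median centring, 0.081 when the probe sets of a gene were averaged and -0.043 to 0.047 without 1 array. For type II MAGE genes it was -0.080 after median centring and -0.0061 to 0.35 without 1 array. For partners it was -0.21 after median centring and -0.032 to 0.077 without 1 array. For regulators it was -0.15 after median centring, -0.044 after quantile normalization, 0.091 when the probe sets of a gene were averaged and -0.084 to 0.064 without 1 array. Among log2 fold changes of single members under these alternatives, 111 moved by less than the SD between replicates and 9 by more. The count of 111 does not show stability, because most of these values could not move further. The replicate block leaves each log2 fold change unchanged in this design. Leaving out 1 array always moves a group mean by less than the SD of that group. All 9 larger moves arose under median centring or with the other added constant. The sign turned for MAGEA12 and the probe set shared by MAGEA3 and MAGEA6 after median centring, and for MAGEA6 after median centring and without control replicate 3 (-0.0045). Signals under the TrpnX level limit what can be said of MAGEA10 in either group and of MAGEA4, MAGEA8 and MAGEA9 in control cells.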
